A study of Capra hircus with 10 samples.

Results

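EBF3 and RARB are host genes of 1 circRNA each, so that 2 of the 1327 circRNAs with deposited counts were members, taken as every circRNA whose listed host gene was EBF3 or RARB. The genes were selected on their junction reads, non-junction reads and circular share in adipocytes against preadipocytes, with earlier results of these data known. Their values in that contrast are therefore given as a description without a test. Ribosomal RNA was removed, and sequencing covered 5 libraries of goat intramuscular preadipocytes (IMPA, day 0) and 5 libraries of intramuscular adipocytes (IMA, day 3 of induction). The question of the study was how circRNAs change during the differentiation of these cells.

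All cells were wild type and came from the fat within the longissimus dorsi of 3 male Jianzhou goats aged 7 days. IMPA were kept in DMEM/F12 with 10% fetal bovine serum, and IMA received the same medium with 50 µmol/L oleic acid. The goat behind each library is not given, and 5 libraries per group from 3 goats cannot all be separate animals. The SDs and p values here therefore describe libraries.

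A circRNA is a closed RNA made when a downstream splice donor is joined to an upstream acceptor, and the reads across that join are its junction reads. EBF3 belongs to the early B cell factor family of helix-loop-helix transcription factors, which act in the development of neurons, blood and mesenchyme, and whose relatives EBF1 and EBF2 are known regulators of fat cell formation. RARB encodes a nuclear receptor that binds retinoic acid, pairs with a retinoid X receptor on DNA and is itself induced by retinoic acid, a signal known to restrain the early steps of adipogenesis.

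Junction reads per library ranged from 11421 to 15553 for IMPA and from 9622 to 12499 for IMA. By the study's read counts, a clearly lower share of reads mapped uniquely in every IMA library than in any IMPA library. The part of this difference in the values below was not tested. For an IMPA library 1 junction read was worth 64.3 to 87.6 TPM, and for an IMA library 80.0 to 104 TPM, where TPM is the count per 1000000 junction reads without a length term. Normalized TPM carries an additional TMM factor. Non-junction reads are the reads that the authors counted at the same locus without the back-splice, and they come mainly from linear transcripts. The circular share is the percentage of reads that are circular when each junction read is weighted by 2, a weight that sets the 1 back-splice of a circle against the 2 splice sites that linear reads can cover.

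The EBF3 circRNA, circ_0011005, lay on the plus strand of chromosome 26 from 2844102 to 2853858, a span of 9757 bases. The files name chromosomes by versioned RefSeq accession and give no assembly name. Its 2 listed exons, 2844102 to 2844183 (82 nt) and 2847634 to 2847751 (118 nt), gave a spliced length of 200 nt. The last listed exon ended 6107 bases before the end of the circRNA, so the listed exons do not reach the back-splice donor. Such a gap or overhang at the higher-coordinate end, on whichever strand, was present in 128 of 1274 exon-derived circRNAs (10%). At either end it was present in 278 (21.8%). The RARB circRNA, circ_0011330, lay on the plus strand of chromosome 27 from 5417518 to 5423614, a span of 6097 bases. Its 2 exons, 5417518 to 5417678 (161 nt) and 5423438 to 5423614 (177 nt), met both ends of the circRNA and gave a spliced length of 338 nt. Across all circRNAs the median span was 8045 bases and the median spliced length 320 nt, and 35.1% of the exon-derived circRNAs had 2 listed exons. A single circRNA per host gene was the usual case, found for 701 of 945 host genes (74.2%).

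At EBF3 the non-junction reads were lower in IMA, whereas the junction reads of the circRNA overlapped between the groups, so that the circular share was higher in IMA. At RARB the circRNA was lower in IMA, whereas the non-junction reads overlapped between the groups after TMM normalization. Fewer cells that express a gene and less RNA per cell cannot be told apart in these bulk libraries.

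EBF3 junction reads numbered 23, 8, 18, 12 and 21 in IMPA replicates 1 to 5. In IMA replicates 1 to 5 they numbered 7, 14, 17, 15 and 11. The groups overlapped over most of their range, with the lowest value in IMA1 and the next lowest in IMPA2. Normalized TPM was 1219 ± 379.6 (SD, n = 5) for IMPA against 1168 ± 348 (SD, n = 5) for IMA, a log2 fold change of -0.08 ± 0.24 (SE). The median log2 fold change over all 1294 circRNAs was -0.07. At 7 to 23 reads per library, the SE of 0.24 was larger than the size of the EBF3 log2 fold change. A small change of this circRNA could therefore be missed, and the smallest detectable change is not given.

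The non-junction reads of EBF3 numbered 151, 140, 134, 156 and 170 in IMPA replicates 1 to 5. In IMA replicates 1 to 5 they numbered 41, 36, 56, 49 and 50. The highest IMA library lay well below the lowest IMPA library. Per 1000000 non-junction reads after normalization, the level was 716 ± 54.5 (SD, n = 5) for IMPA against 329 ± 51.3 (SD, n = 5) for IMA, a log2 fold change of -1.10 ± 0.11 (SE) against a median of 0.00 over 690 circRNAs. With clean reads as library sizes it was -1.72 at a median of -0.64. IMA lay below IMPA without overlap in these normalized values for 10% of the 690 circRNAs. A lower log2 fold change than that of EBF3 was found for 2 of the 690, both from CEMIP, a hyaluronan-binding protein: circ_0009657 with -1.31 and circ_0009677 with -1.22. These were singled out after their values were seen.

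The circular share of EBF3 was 23.4%, 10.3%, 21.2%, 13.3% and 19.8% in IMPA replicates 1 to 5. In IMA replicates 1 to 5 it was 25.5%, 43.8%, 37.8%, 38.0% and 30.6%. All IMA libraries lay above all IMPA libraries, although IMA1 and IMPA1 were close. The mean was 17.6% ± 5.54 (SD, n = 5) for IMPA against 35.1% ± 7.14 (SD, n = 5) for IMA, a difference of 17.5 percentage points. A rise without overlap was found for 4.93% of the 690 circRNAs, and the median difference over all 690 was 1.68 percentage points. Only circ_0001539 of SCMH1 and circ_0004538 of PALLD, named after their values were seen, had a larger rise among the 690, of 24.6 and 20.9 percentage points. Summed over the 690 circRNAs, the share of a library was 9.27% ± 0.428 (SD, n = 5) for IMPA against 10.6% ± 0.293 (SD, n = 5) for IMA, so that the loci as a whole moved in the same direction by a smaller amount. A share within a library does not depend on how libraries are scaled to each other.

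RARB junction reads numbered 54, 25, 30, 28 and 34 in IMPA replicates 1 to 5. In IMA replicates 1 to 5 they numbered 14, 14, 19, 13 and 18. The groups did not overlap, and IMPA1 stood above the other IMPA libraries. Normalized TPM was 2582 ± 763 (SD, n = 5) for IMPA against 1418 ± 202 (SD, n = 5) for IMA, a log2 fold change of -0.80 ± 0.20 (SE). Without IMPA1 the log2 fold change was -0.61. Among 1294 circRNAs, 2.32% lay lower in IMA without overlap in normalized TPM, and 74 had a lower log2 fold change than RARB.

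The non-junction reads of RARB numbered 122, 104, 113, 105 and 146 in IMPA replicates 1 to 5. In IMA replicates 1 to 5 they numbered 88, 61, 91, 61 and 68. The raw reads did not overlap, but neither did the total of non-junction reads at the 690 loci, which ranged from 177795 to 244354 for IMPA and from 128138 to 173047 for IMA. After normalization the groups overlapped, with the highest value of all in IMA1. The normalized level was 559 ± 26.9 (SD, n = 5) per 1000000 for IMPA against 519.6 ± 63.7 (SD, n = 5) for IMA, a log2 fold change of -0.10 ± 0.10 (SE). This value depends on the scaling: it was -0.73 with clean reads as library sizes and -0.41 with the TMM factors of the junction reads, a scaling chosen after seeing the data, at medians over all 690 circRNAs of -0.64 and -0.31.

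The circular share of RARB was 47.0%, 32.5%, 34.7%, 34.8% and 31.8% in IMPA replicates 1 to 5. In IMA replicates 1 to 5 it was 24.1%, 31.5%, 29.5%, 29.9% and 34.6%. The groups overlapped through IMA5, and IMPA1 was the highest library. The mean was 36.1% ± 6.19 (SD, n = 5) for IMPA against 29.9% ± 3.81 (SD, n = 5) for IMA, a difference of -6.22 percentage points, or -3.52 without IMPA1. A lower difference was found for 18 of the 690 circRNAs (2.61%). RARB is not among those whose share fell without overlap. Such a fall was seen for 0.145% of the 690 (the single circRNA being circ_0008471 of LARP1B, named after its value was seen).

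**Figure D1:**
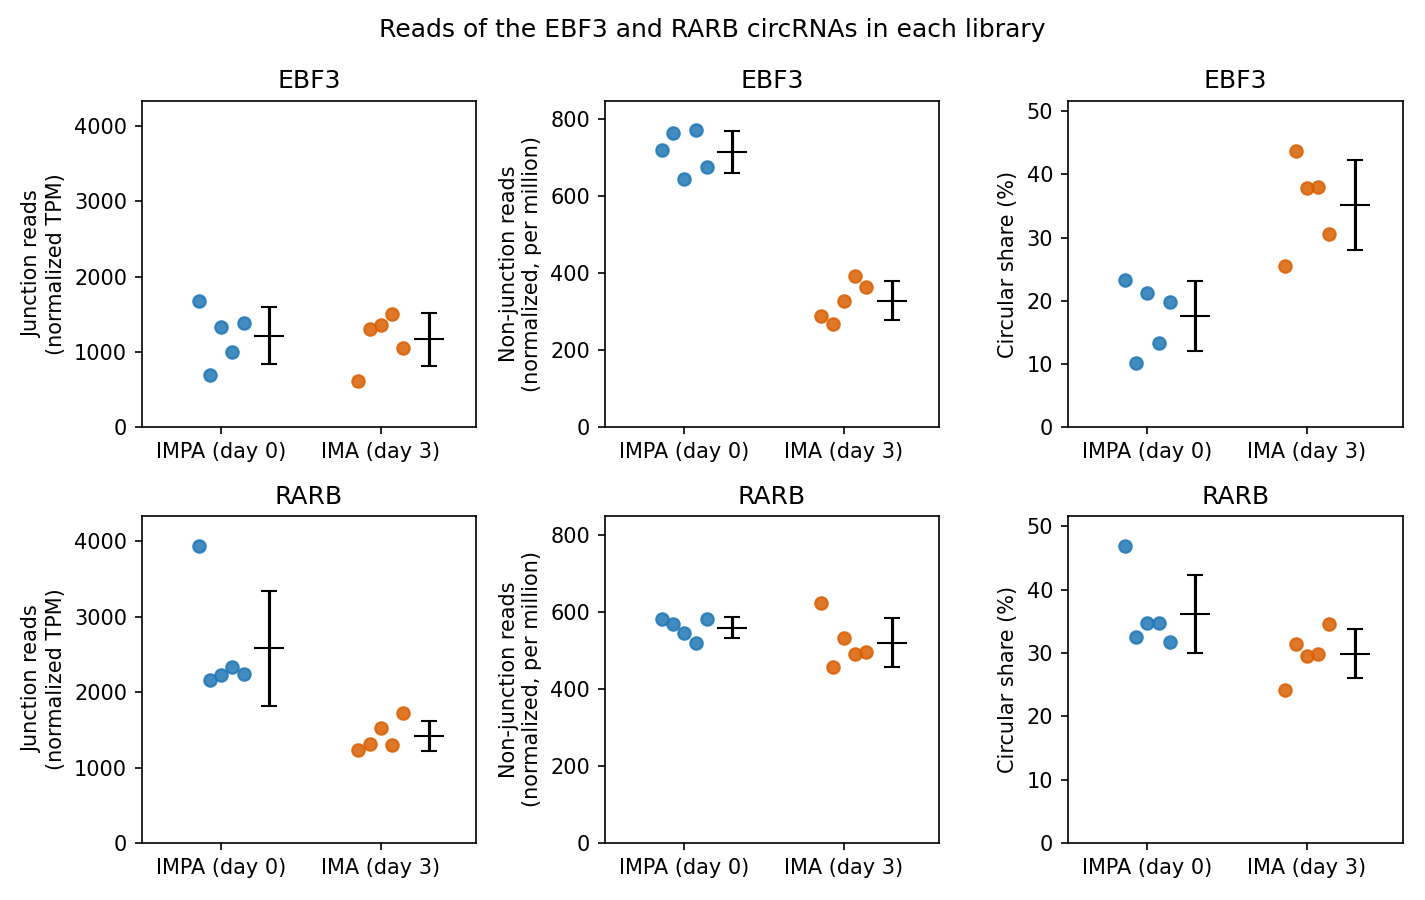
Each dot is a library, with EBF3 in the upper and RARB in the lower row, and bars give the mean ± SD of 5 libraries. The columns show junction reads in normalized TPM, normalized non-junction reads per 1000000 and circular share in percent. EBF3 non-junction reads (716 against 329) and RARB junction reads (2582 against 1418) separate IMPA from IMA.

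The log2 fold change of junction reads minus that of non-junction reads was 1.02 for EBF3, against a median of 0.00 over the 690 circRNAs. It was higher for 4 of them, named after their values were seen: circ_0006499 (1.19) and circ_0006511 (1.08) of LMO7, circ_0009476 of STK10 (1.15) and circ_0004152 of IL27RA (1.07). For RARB the difference was -0.70, and 35 of the 690 (5.07%) had a lower value.

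**Figure D2:**
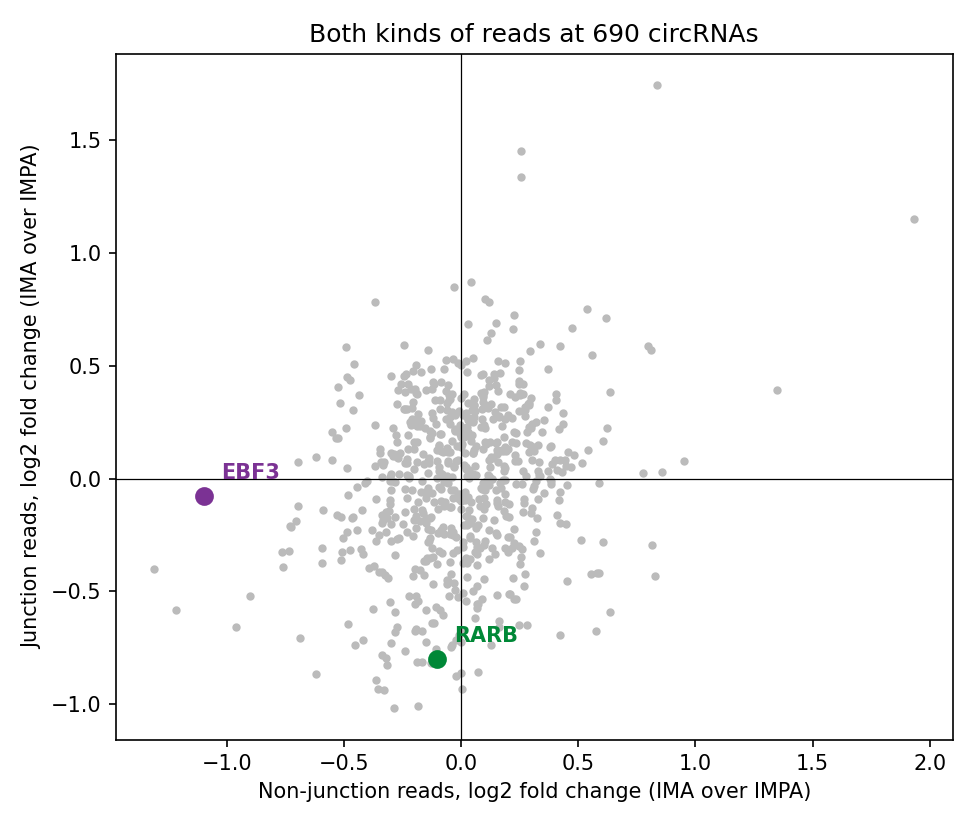
Each point is 1 of the 690 circRNAs that had non-junction reads listed throughout, with the log2 fold change (IMA over IMPA) of non-junction reads on the horizontal and of junction reads on the vertical axis. EBF3 sits at -1.10 and -0.08, and RARB at -0.10 and -0.80.

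The junction of a circRNA is a single position, so junction reads of both genes can be compared without a length term. RARB junction reads exceeded those of EBF3 in 5 of 5 IMPA libraries, at a ratio of 2.22 ± 0.616 (SD, n = 5). In IMA the ratio was 1.32 ± 0.477 (SD, n = 5), with RARB higher in 3 libraries, equal in 1 and lower in 1, so the order of the genes in IMA was within the spread. For non-junction reads, the ratio of RARB to EBF3 was 0.785 ± 0.0769 (SD, n = 5) for IMPA against 1.61 ± 0.350 (SD, n = 5) for IMA. EBF3 had more non-junction reads in 5 of 5 IMPA libraries and RARB in 5 of 5 IMA libraries. The listed exons of EBF3 do not reach its back-splice donor, so the loci may not be on the same footing. Both ratios restate reads on which the genes were selected and are a description.

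Both circRNAs were among the more abundant of the 1327. The mean TPM of EBF3 exceeded that of 87.1% of circRNAs in IMPA and 86.1% in IMA. For RARB the shares were 96.4% in IMPA and 90.5% in IMA. The circular share of EBF3 exceeded that of 68.6% of the 690 circRNAs in IMPA and 86.5% in IMA, and that of RARB 89.6% and 82.3%.

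The deposited predictions paired each circRNA with 6 miRNAs, fewer than the median of 9 per circRNA. EBF3 was paired with miR-20a-3p, miR-25-3p, miR-432-5p, miR-490, miR-92a-3p and miR-92b. RARB was paired with miR-1291, miR-182, miR-221-5p, miR-2284d, miR-378-5p and miR-490. Only miR-490 was shared by both, and it was paired with 36 circRNAs in all (2.71%). miR-25, miR-92a and miR-92b are known as members of a single seed family, and 13 circRNAs were paired with all of them and 14 with any. Per 100 nt of spliced length, EBF3 had 3.00 predicted miRNAs and RARB 1.78, against a median of 2.90. The EBF3 value rests on its listed exons, which do not reach the back-splice donor. The pairs are names without a score or position.

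Over the 10 libraries, the host genes most like EBF3, by the log2 normalized TPM of summed junction reads among 342 others, were DNAJB6, a co-chaperone (Pearson r = 0.903), TNKS2, a tankyrase (r = 0.890), and SENP6, a SUMO protease (r = 0.785). For RARB they were CDYL, a chromodomain protein (r = 0.932), CEMIP (r = 0.908) and KLC1, a kinesin light chain (r = 0.859). CDYL had 37 to 57 junction reads in IMPA and 20 to 26 in IMA. Between EBF3 and RARB, r was 0.307. The points share the library and the difference between the groups, and the values are a description.

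Few other genes of these pathways gave circRNAs. None of the 3 other EBF genes and none of the 29 retinoid signalling genes listed (receptors, binding proteins, enzymes of retinoic acid synthesis and breakdown, and coregulators) had a circRNA in the table. Of 30 adipogenic transcription factors, NFIX and TWIST2 had circRNAs. NFIX, a nuclear factor I protein, had circ_0004165 with a log2 fold change of -0.23 ± 0.40 (SE) and circ_0004166 with 0.23 ± 0.39 (SE). At an adjusted p of 0.01, 0 of these 2 passed with edgeR, DESeq2 or limma voom, where 0.927% of 1294 circRNAs passed with edgeR. At an unadjusted 0.05 in edgeR it was also 0 of 2, where 13.3% of the 1294 passed. Non-junction reads at the NFIX circRNAs were not fitted, since they were not listed in every library. Where listed, they numbered 26 to 47 in IMPA and 9 to 22 in IMA for circ_0004165, and 33 to 59 and 8 to 24 for circ_0004166. These raw reads did not overlap between the groups. The share of all circRNAs without overlap in raw non-junction reads is not given here. The totals of non-junction reads, over circRNAs listed in every library, did not overlap either. They ranged from 177795 to 244354 in IMPA and from 128138 to 173047 in IMA. In proportion, each end of the NFIX ranges was lowered more than that of the totals, and this difference was not tested. The TWIST2 circRNA had 0 junction reads in these libraries. A host gene without a circRNA has no value here, which says nothing of its linear RNA.

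The labelled cell types could be checked against few markers. Of 18 adipocyte markers, PLIN2, a lipid droplet coat protein, alone had circRNAs, with 5, 4, 4, 2 and 5 summed junction reads in IMPA replicates 1 to 5 and 10, 6, 10, 9 and 9 in IMA. The groups did not overlap, and the share of all circRNAs that rose without overlap is not given here. On junction reads in edgeR, 0.927% of 1294 circRNAs passed at an adjusted 0.01 and 13.3% were under an unadjusted 0.05. At an adjusted 0.01, circ_0004263 of PLIN2 did not pass on junction reads (1.15 ± 0.34, SE). It was under an unadjusted 0.05 with edgeR, DESeq2 and limma voom. Its non-junction reads rose by a log2 fold change of 1.93 ± 0.12 (SE; edgeR adjusted p = 1.51e-14), from 638 to 1010 reads in IMPA to 1932 to 2416 in IMA. With clean reads as library sizes the log2 fold change was 1.29, at a median over all 690 circRNAs of -0.64. IMA alone received oleic acid, and its part in the PLIN2 values was not tested. PPARG, CEBPA, ADIPOQ and FABP4 had no circRNA. Of 14 preadipocyte and fibroblast markers, FBN1, which encodes fibrillin, alone had circRNAs, with 22, 11, 20, 18 and 21 summed reads in IMPA and 18, 12, 23, 12 and 16 in IMA. The groups overlapped, and 0 of 2 FBN1 circRNAs passed on junction reads (edgeR, 0 at an unadjusted 0.05, and 0 with DESeq2 and limma voom). The raw non-junction reads overlapped between the groups at both, with lower ranges in IMA. At circ_0005404 they numbered 1802 to 2399 in IMPA and 1540 to 2043 in IMA. At circ_0005405 they numbered 1897 to 2547 in IMPA and 1567 to 2111 in IMA. After TMM scaling the log2 fold changes were 0.34 and 0.29 and passed. With clean reads as library sizes they were -0.30 and -0.35 and passed as well (edgeR adjusted p = 0.00382 and 0.000899). The direction of both calls therefore depends on the scaling. With the TMM factors of the junction reads neither passed (edgeR adjusted p = 0.837 and 0.711), and circ_0005405 did not pass with unlisted libraries taken as 0 (edgeR adjusted p = 0.0131). Over all 690 circRNAs 21.7% passed on non-junction reads. With clean reads as library sizes 595 of the 690 passed, and with unlisted libraries taken as 0 it was 56 of 1294.

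Of 16 striated muscle markers, 3 had circRNAs, with 14, 13, 15, 16 and 21 summed junction reads in IMPA replicates 1 to 5 and 22, 20, 42, 28 and 39 in IMA. The groups overlapped slightly. These sums include MYBPC1, which was listed at 0 reads in IMPA, so no conclusion on the level is drawn from them. The most abundant of the 3 was PAX7, a satellite cell factor, which did not pass (0.13 ± 0.25, SE). MYPN rose from 2 to 3 reads in IMPA to 7 to 14 in IMA (edgeR adjusted p = 0.000977), a call made by DESeq2 at 0.01 but not by limma voom (limma adjusted p = 0.0163). Its IMPA counts lie at or next to 2, the smallest count above 0 in the data, so the size of the rise is uncertain. With edgeR at an adjusted 0.01, 0.927% of 1294 circRNAs passed on junction reads and 21.7% of 690 on non-junction reads. The raw non-junction reads of MYPN overlapped, with 86 to 139 in IMPA and 108 to 178 in IMA. Their log2 fold change of 0.84 ± 0.10 (SE) passed (edgeR adjusted p = 6.85e-08), but with clean reads as library sizes it was 0.20 and did not pass (edgeR adjusted p = 0.120). Those of PAX7 did not pass (0.20 ± 0.11, SE; edgeR adjusted p = 0.149), and with clean reads the value was -0.43 and passed (edgeR adjusted p = 0.00101). MYBPC1 was listed at 0 reads in IMPA and had 5 to 10 in IMA. It entered the fit through its IMA libraries alone, so no p is given, and since the smallest count above 0 in the table is 2, a listed 0 need not mean that no read was present. Its non-junction reads were listed in IMA alone (1187 to 1503) and were not fitted. Both encode sarcomere proteins. MYOD1, MYOG, DES and TTN had no circRNA, nor did any of 6 endothelial and 4 leukocyte markers. The part of these cells in the EBF3 and RARB values was not tested.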

How the data were processed

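After removal of ribosomal RNA and filtering, the authors aligned reads by HISAT2 and kept circRNAs found by find_circ and CIRI2. Versions and the name of the assembly are not given in the sources used here. The counts deposited are junction reads per circRNA. The authors' TPM has no length term and is a CPM, the count per 1000000 circRNA reads of a library. Non-junction reads and locations are from the deposited annotation, which lists them where a circRNA was detected; it names 10 further samples, not used here. Members and lists were chosen with earlier results of these data known.

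Junction reads of 1294 circRNAs, those detected in 5 or more libraries, were fitted with edgeR 4.0.16 in R 4.3.3 (TMM, quasi-likelihood test, prior count 2, Benjamini-Hochberg at 0.01). Non-junction reads were fitted likewise over the 690 circRNAs listed in all 10 libraries, since an unlisted value is not a 0. This restriction was chosen after seeing the data; the filter first planned, detection in at least 5 libraries with unlisted libraries as 0, is given as an alternative. SEs are the log2 fold change over the root of the F statistic. The fit was also run on simulated data, and the outcome of that run is not quoted here. DESeq2 1.42.0 and limma 3.58.1 voom were alternatives. Tables and plots used Python 3.11.15, pandas 2.3.3 and matplotlib 3.10.9. The genes named were every EBF3 or RARB circRNA; the 3 host genes most like each (Pearson r of log2 normalized TPM of summed reads over libraries, mean summed count of at least 10); from each list, members past the threshold and up to 4 with the highest mean TPM; and those said to be named after their values were seen. A planned test of isoform order had no pairs, since each gene has 1 circRNA, and the gene sum equals that circRNA; without it no reads are left.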

Additional observations from a re-analysis of the deposited data

Results flagged for a closer look

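IMPA1 lay far above the other 4 IMPA libraries in the junction reads of RARB, at 3942 normalized TPM against 2165 to 2337. The circular share of RARB was likewise highest in IMPA1, at 47.0% against 31.8% to 34.8%. These were 2 of 12 groups examined, and chance marks about 1 in 20 groups. Both values rest on the same 54 junction reads.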

How the results depend on the processing

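The directions of the EBF3 non-junction, RARB junction and RARB non-junction log2 fold changes and of both share differences held under every alternative run. The EBF3 junction value, near 0, ranged from -0.37 with clean reads as library sizes to 0.15 with uniquely mapped reads. With clean reads as library sizes, RARB junction reads moved to -1.11, EBF3 non-junction reads to -1.72 and RARB non-junction reads to -0.73. The medians of all circRNAs moved to -0.32 and -0.64, and relative to them the values were -0.79, -1.08 and -0.10. Uniquely mapped reads gave -0.57 for RARB junction reads at a median of 0.13. With the TMM factors of the junction reads, chosen after seeing the data, EBF3 and RARB non-junction values were -1.40 and -0.41 at a median of -0.31. Leaving out 1 library gave -0.20 to 0.08 for EBF3 junction, -0.86 to -0.61 for RARB junction, -1.16 to -1.04 for EBF3 non-junction and -0.17 to -0.06 for RARB non-junction reads, with share differences of 15.4 to 19.9 and -7.40 to -3.52 percentage points. Without the weight of 2 on junction reads these differences were 11.7 and -4.56. The 12 junction calls (6 higher, 6 lower) became 19 (6 higher) at a threshold of 0.05 and 25 (5 higher) with clean reads. They became 8 (6 higher) without TMM and 9 (8 higher) with uniquely mapped reads. At a mean count of at least 10 they became 13 (3 higher) of 325 circRNAs. Without 1 library they became 6 to 12, with 7 (5 higher) without IMA1, 7 (5 higher) without IMA2 and 6 (5 higher) without IMA4. The 150 non-junction calls (80 higher, 70 lower) became 246 at 0.05, 595 (3 higher) with clean reads, 154 (48 higher) without TMM, 142 (49 higher) with uniquely mapped reads and 109 to 145 without 1 library. The 690 circRNAs behind them were themselves chosen after seeing the data. Under the filter first planned, with unlisted libraries as 0, 56 (37 higher) of 1294 were called, and 54 without a filter as well. With junction TMM factors 364 (14 higher) were called. Non-junction values turned for FBN1 with clean reads (-0.30 and -0.35), for FBN1 circ_0005405 with junction TMM factors (-0.030), and for PAX7, not called at 0.20, with clean reads (-0.43, called) and junction TMM factors (-0.11, not called). By the study's read counts, every IMA library had a lower uniquely mapped share than every IMPA library, and its part in these shifts was not tested. With the replicate number as a block, 11 and 173 were called, and log2 fold changes were -0.07 and -1.09 for EBF3 and -0.78 and -0.10 for RARB. Deviations of same-numbered libraries correlated at -0.05 to 0.07, no sign of pairing.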
